A study of Mus musculus with 12 samples.

Results

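The 31 genes described here make, sense, move and export cholesterol, and their transcripts were measured in mouse macrophages and osteoclasts before and after exposure to LPS (lipopolysaccharide, from the bacterial outer membrane). They were taken from a fixed list of symbols, each matched to 1 Ensembl mouse gene, and kept where a value of at least 1 FPKM (fragments counted per kilobase of exon, with each library scaled by its own factor) was reached in at least 3 of the 12 libraries. All 31 listed genes passed, among 11335 of 54532 genes in the table that did so. Fdps, at 1.05 to 1.21 FPKM in untreated macrophages and at most 0.54 FPKM elsewhere, passed through that group alone and stands just inside the threshold, so the counts each comparison leads with are given without it. Tm7sf2, at 0.824 to 0.999 FPKM in the 6 osteoclast libraries, passed through macrophages alone. It is left out of counts in osteoclasts and of counts that compare the cell types. The last section, on how results depend on the processing, counts all 31 genes.

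Marrow cells of wild-type (WT) mice were expanded with CMG, a source of the macrophage growth factor M-CSF, and kept as macrophages or turned into osteoclasts with RANKL, the cytokine that drives osteoclast formation. The 4 groups of 3 libraries were untreated macrophages, macrophages given LPS at 100 ng/mL for 3 h on day 5, untreated osteoclasts and osteoclasts given the same LPS. All 4 groups shared the WT genotype and the CMG medium, and the RANKL dose is 100 ng/mL in the sample source but a range in the protocol. The labels do not say whether replicates came from separate animals or cultures, so p-values measure only the spread between these samples, which may be technical.

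Cholesterol is built from acetyl units through mevalonate, squalene and lanosterol, and the enzymes of that route are encoded by genes that the transcription factor SREBP-2 switches on when sterol runs low. SREBP precursors are carried out of the endoplasmic reticulum by SCAP and are held back there by the INSIG proteins when sterol is plentiful. Oxysterols and late sterol intermediates activate the liver X receptors (LXRs), which raise the transporters ABCA1 and ABCG1 and so export cholesterol. Macrophages take up much cholesterol from debris, and osteoclasts need membrane cholesterol to fuse and to survive.

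The promoters of the enzymes are shown first because most enzyme genes were called lower with LPS in macrophages. SREBPs bind sterol regulatory elements and are helped by the factor NF-Y, which binds the CCAAT box. The RefSeq promoter table (GRCm38.p6, 250 bases before to 50 after a start) had entries for 26 of the 31 members and 14 of the 17 enzymes. Abcg1, Fdft1, Fdps, Sqle and Stard4 had none. Windows were searched on both strands for CCAAT, for the sterol regulatory element TCACNCCAC, and for an LXR element made of 2 AGGTCA copies with a spacer of 4 bases and at most 2 mismatches over both copies. In the members no match of 1 motif overlapped a match of another. The stretches below lie upstream of the start, 5′ to 3′ on the gene's strand, with each CCAAT box (read as CCAAT or, on the other strand, ATTGG) and sterol element in capitals. Of the enzymes shown, all but Ebp, which did not pass the test in any comparison, fell with LPS in macrophages. Sc5d was also far lower in osteoclasts, and Hmgcs1 was the 1 enzyme with a sterol element. The stretches are those of Lss, Mvd, Hsd17b7, Mvk, Sc5d, Hmgcs1 and Ebp. They come from chr10:76531478-76531587 (plus strand, Lss), chr8:122443423-122443532 (minus strand, Mvd), chr1:169969242-169969351 (minus strand, Hsd17b7), chr5:114444159-114444268 (plus strand, Mvk), chr9:42264301-42264410 (minus strand, Sc5d), chr13:119690104-119690320 (plus strand, Hmgcs1) and chrX:8193513-8193622 (minus strand, Ebp).
Lss: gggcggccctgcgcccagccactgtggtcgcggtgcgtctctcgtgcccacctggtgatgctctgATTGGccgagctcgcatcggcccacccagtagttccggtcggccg
Mvd: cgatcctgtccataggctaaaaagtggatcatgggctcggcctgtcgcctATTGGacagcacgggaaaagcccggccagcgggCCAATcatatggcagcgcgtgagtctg
Hsd17b7: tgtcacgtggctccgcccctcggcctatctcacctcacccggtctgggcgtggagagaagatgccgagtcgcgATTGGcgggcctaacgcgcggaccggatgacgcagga
Mvk: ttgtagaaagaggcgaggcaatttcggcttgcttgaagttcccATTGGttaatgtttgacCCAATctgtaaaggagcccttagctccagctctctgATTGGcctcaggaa
Sc5d: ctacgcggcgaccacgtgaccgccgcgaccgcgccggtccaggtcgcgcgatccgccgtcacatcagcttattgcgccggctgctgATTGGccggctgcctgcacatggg
Hmgcs1: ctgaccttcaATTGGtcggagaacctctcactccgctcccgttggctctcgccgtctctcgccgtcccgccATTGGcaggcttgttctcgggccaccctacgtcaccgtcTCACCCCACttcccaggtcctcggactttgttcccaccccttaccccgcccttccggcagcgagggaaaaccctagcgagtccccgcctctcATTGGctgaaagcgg
Ebp: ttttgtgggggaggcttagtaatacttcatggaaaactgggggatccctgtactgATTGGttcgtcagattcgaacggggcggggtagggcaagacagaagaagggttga

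A CCAAT box lay in a window of 14 of the 14 enzymes with an entry (100%), of 20 of 26 members (76.9%) and of 11096 of the 27025 genes in the table (41.1%). Several genes have more than 1 start: counted by start, 14 of 17 enzyme windows (82.4%) and 37.4% of all windows held one. Ebp, Idi1, Pmvk and Tm7sf2, which were not called with LPS in macrophages, had the box as well. The sterol element TCACNCCAC was in the window of Hmgcs1 alone among the enzymes (7.14%), against 1.44% of all genes. The LXR element matched Dhcr7 alone among 26 members (3.85%), against 3.47% of all genes, and none of the 3 LXR targets with an entry. A match describes letters only, and an absent match says no more than that these letters are not in these windows.

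The libraries held 15651759 to 20281444 assigned reads. The 4 LPS response genes (Tnf, Il6, Cxcl10 and Ifit1) rose in both cell types. The 8 osteoclast markers summed to 28984.5 to 31978.9 FPKM in the 6 osteoclast libraries, to 8.26 to 12.2 FPKM in untreated macrophages and to 19.3 to 23.4 FPKM in treated macrophages, where Acp5 was higher (3.05, adjusted p = 3.10e-08). Of the 8 macrophage markers, 7 were called lower in osteoclasts and 1 higher, both without LPS (median log2 difference -3.26) and with it (-3.77). Of all genes, 39.0% and 43.0% were called lower in these comparisons. The 8 markers summed to 1730.5 to 1809.2 FPKM in untreated osteoclasts, through Cd68 and Csf1r, and to 2100.9 to 2176.4 FPKM in untreated macrophages. Mrc1 was at 1.62 to 3.41 FPKM in osteoclasts and at 290 to 387 FPKM in macrophages. The 6 stromal and osteoblast markers summed to 26.5 to 36.8 FPKM in macrophages, mostly Col1a1 and Col1a2, and to at most 1.52 FPKM in osteoclasts, with Alpl at 0 in all 3 untreated osteoclast libraries. The 5 neutrophil markers summed to 4.08 to 6.08 FPKM in untreated macrophages, 5.3 to 11.8 FPKM in treated macrophages and at most 1.62 FPKM in osteoclasts. In macrophages they were nearly all S100a8 and S100a9, with Ly6g and Elane at 0 in every untreated library, and S100a9 was called higher with LPS in macrophages (0.83, adjusted p = 0.0129). The 3 dendritic cell markers summed to 0.202 to 0.28 FPKM in untreated and 5.26 to 5.96 FPKM in treated macrophages, mostly Xcr1, which passed the filter through treated macrophages alone, so no test of it is given. The part of these markers in the differences between groups was not tested. The 3 adipocyte and 3 T cell markers were each at 0 in every macrophage library. In these bulk samples, fewer cells of a type and less RNA per cell cannot be told apart. Osteoclasts given LPS, replicate 2, had the lowest value of its group for Cxcl10 (141 against 240 and 260 FPKM) and for the macrophage marker Adgre1 (42.5 against 73.1 and 70.9 FPKM).

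In macrophages, LPS lowered most of the cholesterol synthesis enzymes. Differences are given as differences of mean log2(FPKM + 1) with the standard error, tested with limma and called at a Benjamini-Hochberg adjusted p under 0.05 over all 11335 genes. Of the 16 enzymes other than Fdps, 12 fell, 0 rose and 4 did not pass the test, with a median difference of -0.59 against 0.02 over all genes tested. Across all genes, 33.1% were called lower and 36.8% were called higher. Of the 30 members other than Fdps, 16 fell and 6 rose. The values of all 17 enzymes, of which Fdps adds at most 1.21 FPKM, summed to 272, 289 and 291 FPKM in untreated macrophages and to 183, 182 and 182 FPKM after LPS.

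**Figure D1:**
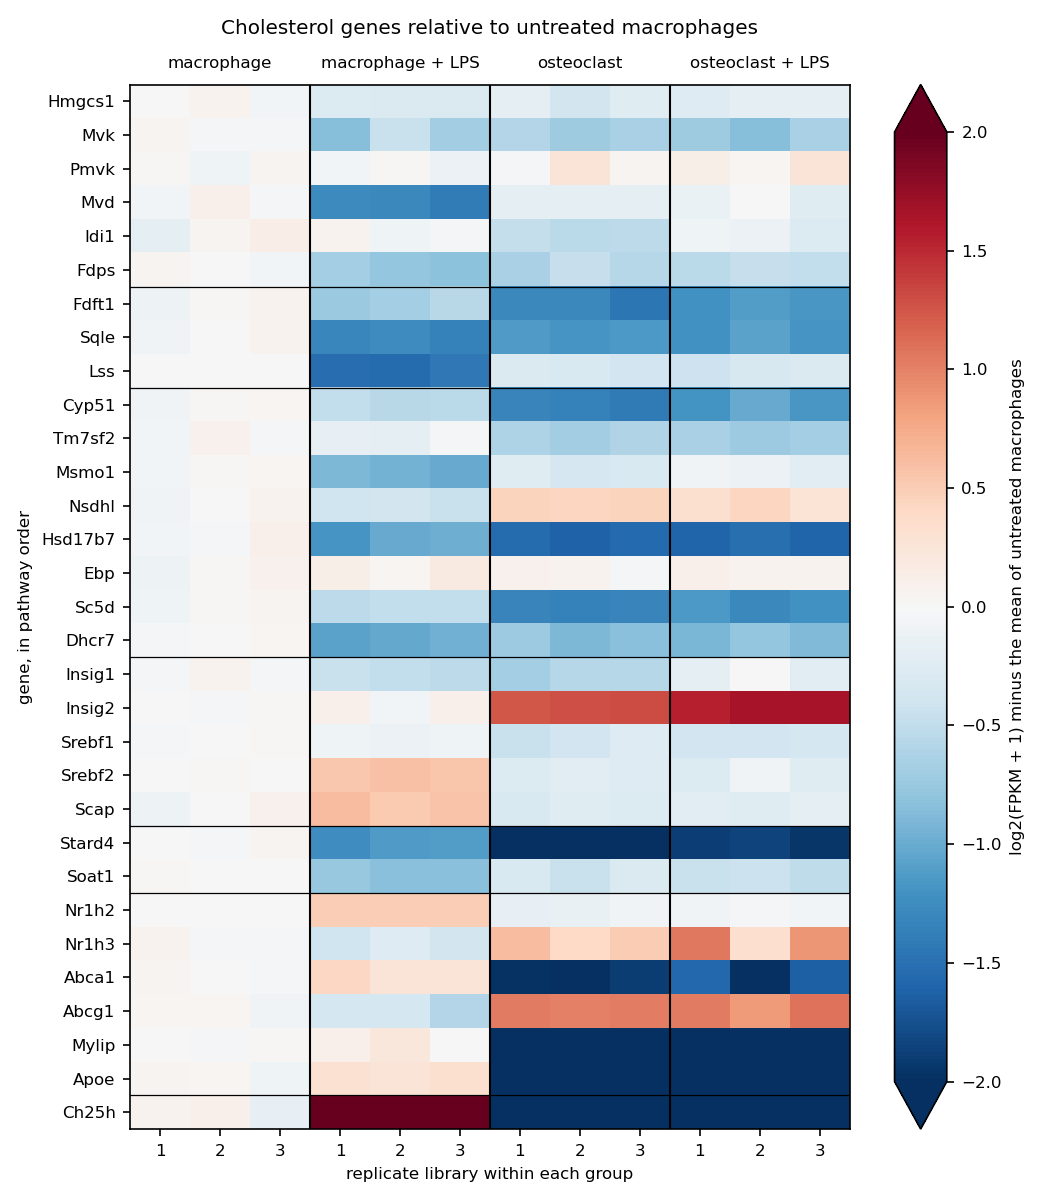
Level of each of the 31 genes (rows, in pathway order) in each of the 12 libraries (columns, in groups), as log2(FPKM + 1) minus the mean of the 3 untreated macrophage libraries. Blue is lower and red is higher, and colours stop at 2 in either direction. Most enzyme rows are blue in the macrophages given LPS and in all 6 osteoclast libraries, while Insig2 and Abcg1 are red in osteoclasts.

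Among the 16 enzymes other than Fdps, the largest decline on the log2(FPKM + 1) scale was that of Lss, in the steps from squalene to lanosterol. Lss (chr10:76531588-76557138), lanosterol synthase, which closes the sterol rings, was at 5.67, 5.61 and 5.69 FPKM in untreated macrophages and at 1.31, 1.3 and 1.48 FPKM after LPS. The groups did not overlap, and its difference was -1.49 (SE 0.05, adjusted p = 1.42e-10), a fall of its mean FPKM to 0.241 of the untreated level. Sqle (chr15:59315077-59331192), squalene epoxidase, a control point of the late pathway, read 28.9, 30.2 and 32.1 FPKM untreated and 11.7, 12.1 and 11.3 FPKM with LPS. All 3 treated libraries lay far below the untreated ones, by -1.31 (SE 0.05, adjusted p = 2.41e-10). Fdft1, squalene synthase, went from 13.9, 15.2 and 15.7 FPKM to 8.56, 8.97 and 9.78 FPKM. That difference of -0.66 (SE 0.06, adjusted p = 1.58e-06) is uncertain, because 18.3% of its exon length overlaps Ctsb on the opposite strand, Ctsb averaged 1453.4 FPKM in untreated and 1653.7 FPKM in treated macrophages, and whether reads were counted by strand is not stated.

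Of the 5 mevalonate genes other than Fdps, 3 fell and 2 did not pass the test. Mvd (chr8:122433601-122443422), mevalonate diphosphate decarboxylase, had the largest decline of these on the log2(FPKM + 1) scale. It read 18.7, 21 and 18.9 FPKM in untreated macrophages and 7.5, 7.42 and 6.74 FPKM after LPS. Its groups were far apart, with a difference of -1.32 (SE 0.06, adjusted p = 2.06e-09). Mvk, mevalonate kinase, fell by 0.66 on the log2 scale from 7.8 ± 0.271 to 4.6 ± 0.794 FPKM (SD, n = 3 in each group), with adjusted p = 3.24e-05 in limma. Hmgcs1, which makes HMG-CoA, was the most abundant of the 6, and fell the least of those called, by 0.29 on the log2 scale, from 38 ± 1.78 to 31 ± 0.347 FPKM (SD, n = 3 in each group). Idi1, isopentenyl diphosphate isomerase, and Pmvk, phosphomevalonate kinase, had differences of -0.01 (adjusted p = 0.908) and -0.05 (adjusted p = 0.589). Fdps, farnesyl diphosphate synthase, was at 0.203 to 0.316 FPKM after LPS, and 26.7% of its exon length is shared with Gm43738 on the same strand, so its level is uncertain. Smaller overlaps touch Scap (13.2%, 5830462I19Rik), Hmgcs1 (12.1%, Gm48342), Idi1 (9.2%, Gm48574), Cyp51 (3.8%, Akap9) and Lss (3.5%, 4930483K19Rik) on the opposite strand and Tm7sf2 (12.1%, Vps51) on the same strand. Each of these overlapping genes averaged at most 3.28 FPKM in any group.

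From lanosterol to cholesterol 6 of 8 enzymes fell and 2 were not called. Hsd17b7, a sterol ketone reductase, stood at 13.5, 13.6 and 15.1 FPKM untreated and at 5.66, 6.48 and 6.68 FPKM with LPS. Dhcr7, which carries out the last reduction to cholesterol, went from 6.18, 6.36 and 6.6 FPKM to 2.5, 2.64 and 2.8 FPKM. Both changed by more than the spread between libraries, Hsd17b7 by -1.05 (SE 0.06, adjusted p = 1.82e-08) and Dhcr7 by -1.02 (SE 0.06, adjusted p = 1.81e-08). The difference was -0.95 for Msmo1, the methylsterol monooxygenase, -0.53 for Cyp51, the lanosterol demethylase, -0.49 for Sc5d, the sterol desaturase, and -0.41 for Nsdhl, a sterol dehydrogenase. Ebp, the sterol isomerase, averaged 15 ± 1.04 FPKM untreated and 16.2 ± 0.833 FPKM with LPS (SD, n = 3 in each group), a difference of 0.11 (adjusted p = 0.0945). Tm7sf2, a sterol reductase, had a difference of -0.13 (adjusted p = 0.114). Called and uncalled genes sat side by side in the pathway, as Pmvk, which acts between Mvk and Mvd, shows.

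The size of these falls depends on the scale, since LPS changed the sum of the FPKM columns. The deposited values are scaled to the typical gene. Rescaled to a common sum per library (TPM), the median difference of all genes with LPS in macrophages moved from 0.02 to -0.55, and the share of calls that were higher from 52.6% to 18.5%. Quantile normalization moved that median to -0.14 and that share to 37.0%. For the difference of LPS effects between cell types, the share of calls above 0 was 47.0% as deposited, 82.0% in TPM and 59.9% after quantile normalization. In osteoclasts with LPS the share of calls that were higher was 62.8% as deposited, 43.5% in TPM and 38.5% after quantile normalization. Of the 16 enzymes other than Fdps, 15 lay below the median of all genes tested with LPS in macrophages under each of the 3 scalings. The number called lower was 12 of 16 as deposited, 16 in TPM and 15 after quantile normalization, while the share of all genes called lower went from 33.1% to 70.0% and 45.8%.

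**Figure D2:**
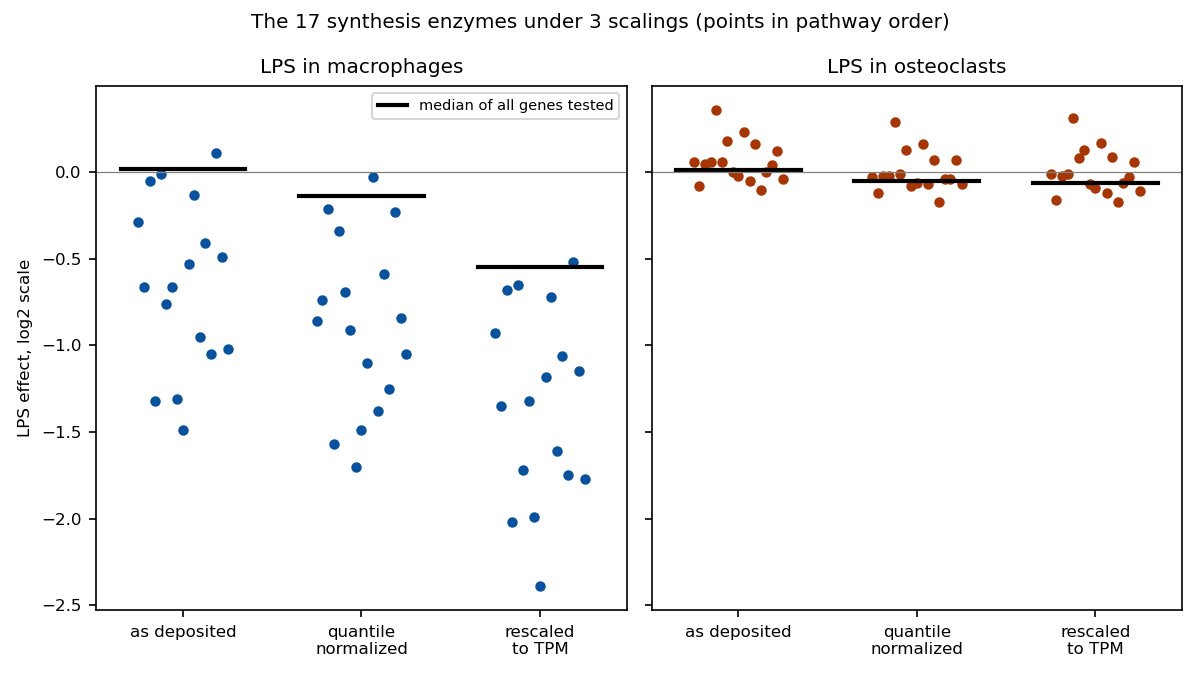
LPS effect (difference of log2 means) of each of the 17 synthesis enzymes, as points in pathway order, in macrophages (left) and osteoclasts (right) under the deposited scale, quantile normalization and rescaling to TPM. The black bar is the median of all genes tested: in macrophages it moves from 0.02 to -0.14 and -0.55, and 16 of the 17 points, 1 of them Fdps, lie below it in each case.

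In osteoclasts given the same LPS none of the enzymes was called lower on the deposited scale, and Nsdhl was after quantile normalization. Of the 15 other than Fdps and Tm7sf2, 3 rose, 0 fell and 12 did not pass the test. Their median was 0.05, against 0.01 over all genes. Of all genes, 11.1% were called higher and 6.59% were called lower. Over the 29 members other than Fdps and Tm7sf2, 6 rose and 0 fell. At an unadjusted p under 0.05 Soat1 alone had a lower value, and voom on the recovered reads also called 0 members lower. Idi1 rose from 10.2, 9.76 and 9.87 FPKM to 13.7, 13.4 and 12 FPKM, a difference of 0.36 (SE 0.08, adjusted p = 0.00816). Cyp51 rose from 17.2, 16.9 and 16 FPKM to 18.8, 21.6 and 19.2 FPKM, by 0.23 (SE 0.05, adjusted p = 0.0111). Neither gene's groups overlapped. The call of Cyp51 was lost in TPM (adjusted p = 0.0883), after quantile normalization (0.0585), with only the groups compared (0.0564) and without untreated osteoclast replicate 3 (0.0531). Msmo1 had a difference of 0.16 with an adjusted p of 0.0456, a call that was lost under 16 of the alternatives, with adjusted p-values up to 0.263. Lss averaged 4.32 ± 0.17 FPKM in untreated osteoclasts and 4.25 ± 0.249 FPKM with LPS (SD, n = 3 in each group), a difference of -0.02 (SE 0.05, adjusted p = 0.826). Sqle had a difference of 0.00 (SE 0.05, adjusted p = 0.999).

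**Figure D3:**
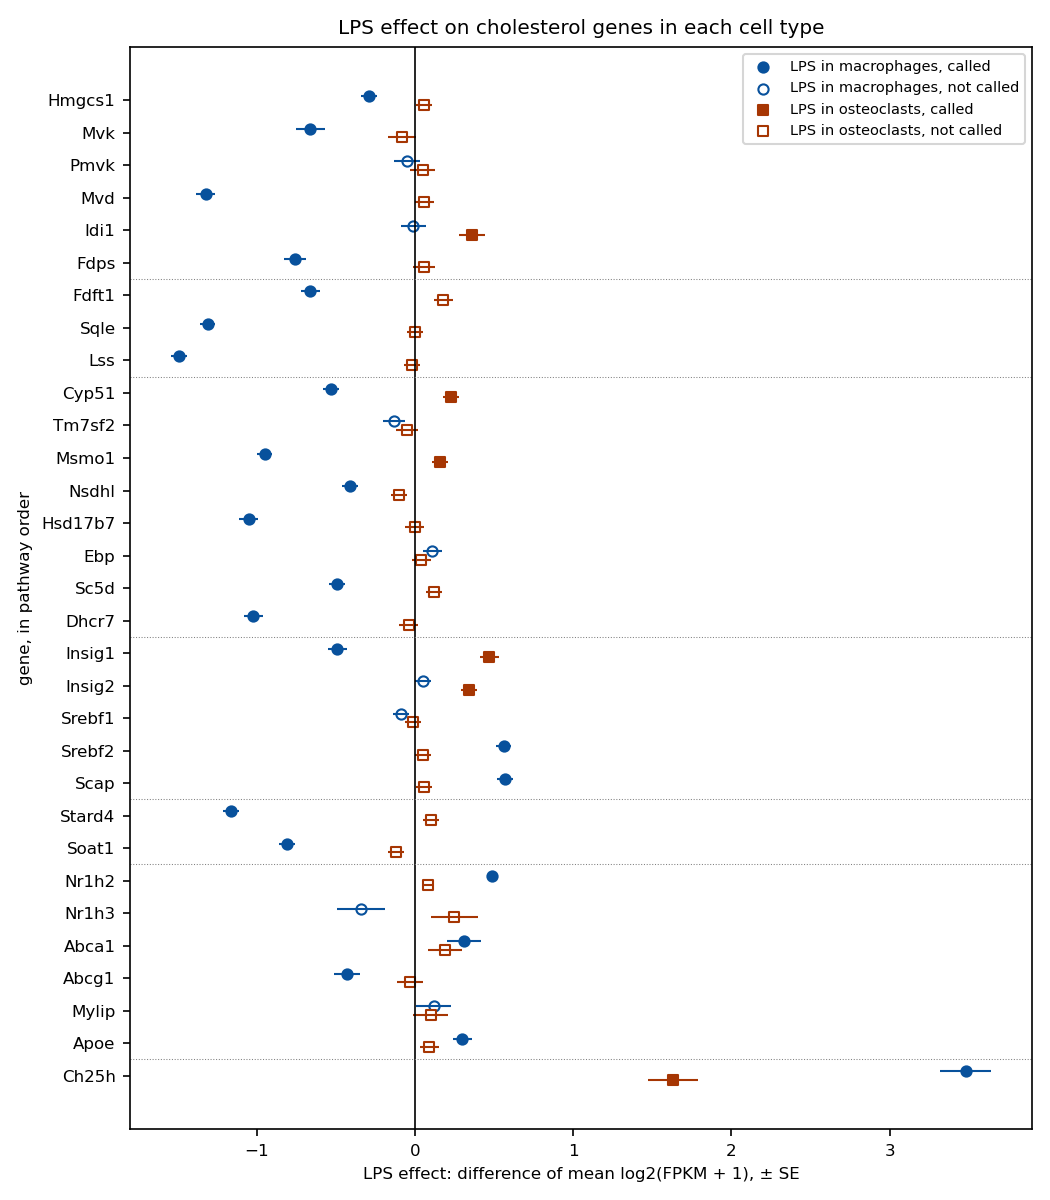
LPS effect on each gene, as the difference of mean log2(FPKM + 1) with its standard error, in macrophages (blue circles) and osteoclasts (brown squares). Filled symbols passed an adjusted p under 0.05. The enzyme circles reach -1.49 (Lss), while the enzyme squares lie between -0.10 and 0.36.

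The difference between the LPS effects, osteoclasts minus macrophages, was tested as an interaction in the same limma fit. It was above 0 and called for 13 of the 15 enzymes other than Fdps and Tm7sf2 and below 0 for none, with a median of 0.76 against -0.01 over all genes. In all, 26.6% of the genes tested were called above 0 and 30.0% below 0, 56.6% together. In TPM it was above 0 and called for 15 of the 15, beside 63.3% of all genes. Each of the 12 enzymes other than Fdps that fell in macrophages was among those called. The values were 1.47 for Lss (SE 0.08, adjusted p = 1.17e-08), 1.38 for Mvd (SE 0.09, adjusted p = 8.75e-08) and 1.31 for Sqle (SE 0.07, adjusted p = 1.71e-08). Idi1 was the 1 enzyme called here (0.37, adjusted p = 0.0141) that had risen in osteoclasts without a call in macrophages. The 2 LPS effects share no libraries, but the interaction contains both and is no further evidence beside them.

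Untreated osteoclasts already had less of most enzyme transcripts than untreated macrophages. Of the 15 enzymes other than Fdps and Tm7sf2, 12 were lower, 1 was higher and 2 were not called, with a median of -0.51 against 0.00 over all genes. Across all genes, 39.0% were called lower and 38.8% higher, so a call in itself was common. In TPM 14 of the 15 enzymes were lower and 0 higher, with a median of -0.95, while the median of all genes moved from 0.00 to -0.38 and 57.0% of all genes were called lower and 24.3% higher. Hsd17b7 read 4.19, 3.9 and 4.1 FPKM in untreated osteoclasts, against the 13.5, 13.6 and 15.1 FPKM of untreated macrophages. That was the largest difference among the enzymes, -1.57 (SE 0.06, adjusted p = 2.77e-10). Cyp51 differed by -1.36, at 16.7 ± 0.629 against 44.5 ± 1.83 FPKM (SD, n = 3 in each group). Sc5d read 7.05, 6.9 and 7.11 FPKM in untreated osteoclasts and 18.1, 19.6 and 19.9 FPKM in untreated macrophages, with a difference of -1.33 (SE 0.05, adjusted p = 9.13e-11). Fdft1 read 5.54, 5.5 and 4.87 FPKM in untreated osteoclasts, with a difference of -1.34 (SE 0.06, adjusted p = 1.28e-09) and the same uncertainty as above, since Ctsb averaged 828 FPKM there. Sqle differed by -1.15 and Dhcr7 by -0.82. Nsdhl was the enzyme that was higher in osteoclasts, at 15, 14.8 and 14.9 FPKM against 10.2, 10.7 and 11.3 FPKM, a difference of 0.44 (SE 0.05, adjusted p = 5.51e-06) that was 0.05 (adjusted p = 0.459) in TPM. The summed enzyme values were 187, 181 and 181 FPKM in untreated osteoclasts. Stromal markers were higher in macrophages, as given above, and their part in these differences was not tested.

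Not every enzyme that was low after LPS in macrophages was low in osteoclasts to a like degree. Of the 16 enzymes other than Fdps, Lss and Mvd fell most with LPS in macrophages on the log2(FPKM + 1) scale. Between the untreated cell types they differed by only -0.32 (adjusted p = 1.39e-04) and -0.19 (adjusted p = 0.0157). Sqle, whose LPS difference of -1.31 was nearly that of Mvd, differed by -1.15 between the untreated cell types. The call of Mvd was lost without untreated macrophage replicate 2 (-0.14, adjusted p = 0.0758). Mvd read 16.9, 16.9 and 17.1 FPKM in untreated osteoclasts, and Lss 4.44, 4.41 and 4.13 FPKM. For 10 of the 15 enzymes other than Fdps and Tm7sf2, all 3 untreated macrophage libraries lay above all 9 other libraries, as they did for 16.4% of all genes tested.

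After LPS in both cell types, osteoclasts were above macrophages in some enzymes and below them in others. Among the 15 enzymes, 7 were higher in osteoclasts given LPS than in macrophages given LPS, 4 were lower and 4 were not called, with a median of 0.08 against -0.02 over all genes. Of all genes, 40.9% were called higher and 43.0% lower, so the 7 of 15 are near the background. Mvd, at 17.7, 19.3 and 16.3 FPKM in treated osteoclasts, was higher by 1.19 (SE 0.06, adjusted p = 2.63e-09). Lss, at 3.97, 4.35 and 4.43 FPKM, was higher by 1.15 (SE 0.05, adjusted p = 7.23e-10). Msmo1 was higher by 0.81 and Nsdhl by 0.75, while the difference was -0.72 for Sc5d, -0.60 for Cyp51 and -0.52 for Hsd17b7. Mvd, Sqle, Lss, Msmo1 and Dhcr7 were the 5 of these 15 enzymes that were called lower in osteoclasts without LPS and higher with it, as were 3.63% of all genes. The call with LPS of Sqle (0.15) was lost without osteoclast LPS replicate 2 (adjusted p = 0.0531). That of Dhcr7 (0.16) was lost under 6 of the alternatives, which were without macrophage LPS replicate 1 (adjusted p = 0.104) or 2 (0.0643), without osteoclast LPS replicate 2 (0.121), with no filter (0.0504), with only the groups compared (0.0676) and with voom (0.0651). The call of Pmvk (0.19, adjusted p = 0.0469) was lost under 11 of the alternatives. This comparison and the preceding ones share libraries, so their values stand side by side and are not independent.

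**Figure D4:**
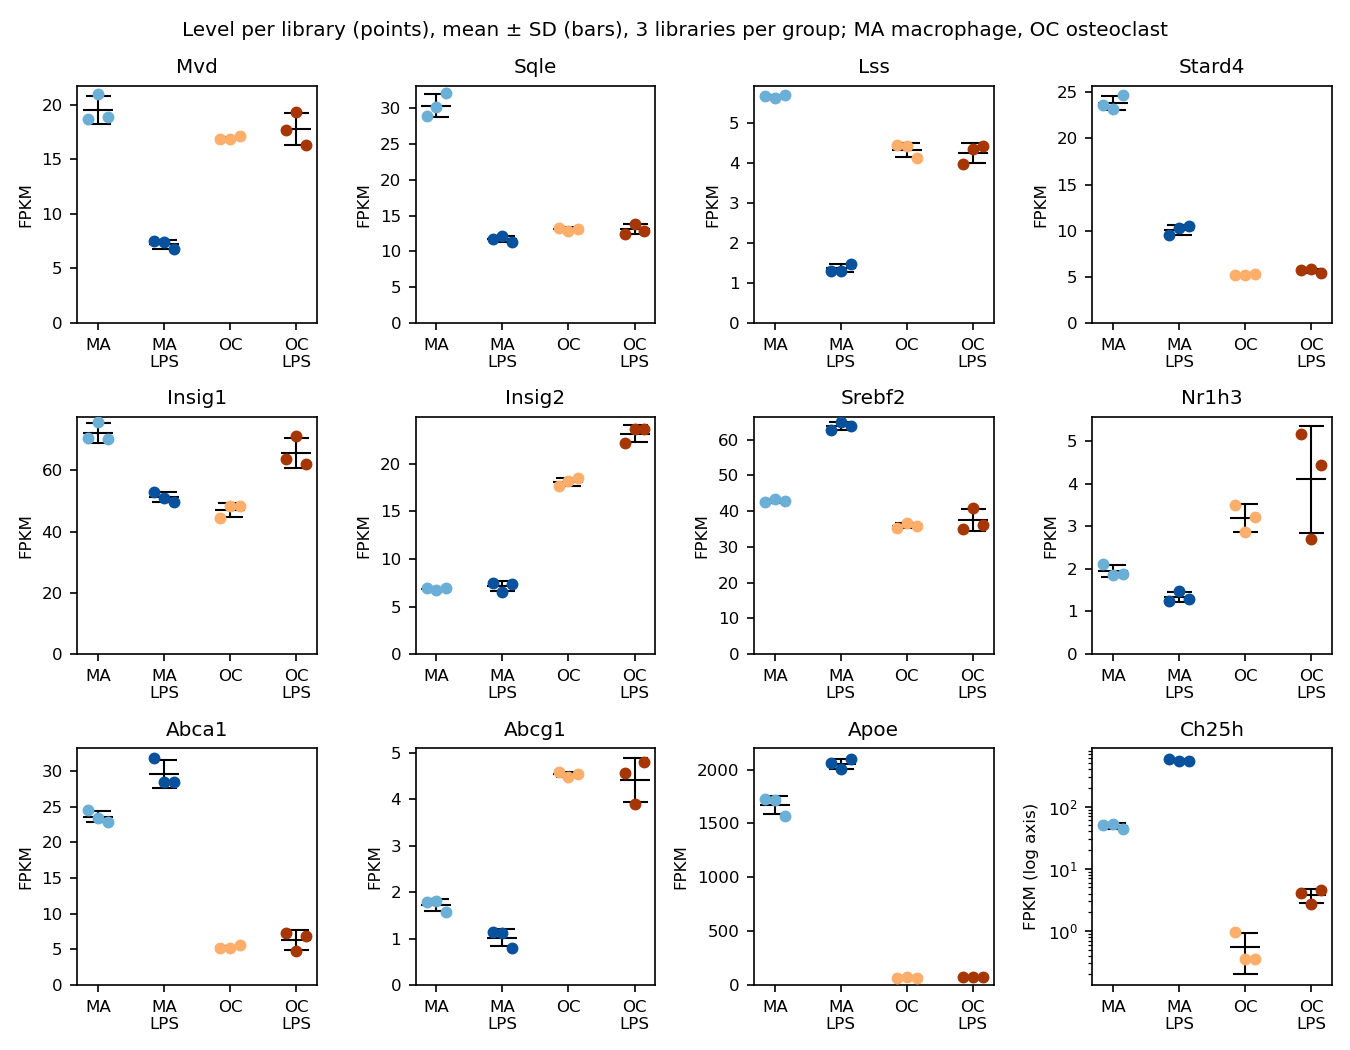
FPKM of 12 of the genes in each of the 12 libraries (points) with the mean and SD of each group of 3 (bars), for macrophages (MA, blue) and osteoclasts (OC, orange) without and with LPS. The Ch25h axis is logarithmic. Mvd and Lss fall with LPS in macrophages alone, Insig1 moves in opposite directions in the 2 cell types, and Apoe and Abca1 are low in all 6 osteoclast libraries.

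The genes that control SREBP did not follow the enzymes as a group. Insig1, which retains SREBP in the endoplasmic reticulum and is itself an SREBP target, did so in direction. It read 70.6, 75.9 and 70.2 FPKM in untreated macrophages and 52.9, 51 and 49.8 FPKM after LPS. In osteoclasts it read 44.5, 48.5 and 48.3 FPKM without LPS and 63.7, 71.4 and 62.2 FPKM with it. Neither pair of groups overlapped, and the directions were opposite: -0.49 (SE 0.06, adjusted p = 8.53e-06) in macrophages and 0.47 (SE 0.06, adjusted p = 1.05e-04) in osteoclasts, with an interaction of 0.96 (SE 0.08, adjusted p = 8.52e-07). Of the 4 members called with LPS in both cell types, Insig1, Cyp51 and Msmo1 went in opposite directions and Ch25h rose in both.

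Insig2, the second INSIG protein, whose transcript is less tied to SREBP, was higher in osteoclasts. It read 6.91, 6.75 and 6.96 FPKM in untreated macrophages and 7.47, 6.56 and 7.42 FPKM after LPS, groups that overlapped (0.05, adjusted p = 0.406). In TPM the LPS difference of Insig2 in macrophages was called below 0, with its value given below. Untreated osteoclasts read 17.7, 18.2 and 18.5 FPKM, and treated ones 22.2, 23.7 and 23.7 FPKM. Every osteoclast library lay above every macrophage library, by 1.28 without LPS (SE 0.05, adjusted p = 1.91e-10) and 1.57 with it (SE 0.05, adjusted p = 2.10e-11). The LPS effect in osteoclasts was 0.34 (SE 0.05, adjusted p = 4.80e-04).

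Srebf2, which encodes SREBP-2, had higher values after LPS in macrophages, where its target enzymes fell. It read 42.4, 43.5 and 42.7 FPKM untreated and 62.6, 64.8 and 63.7 FPKM with LPS, a difference of 0.56 (SE 0.05, adjusted p = 6.85e-07). Scap, the SREBP escort, read 4.48, 4.87 and 5.23 FPKM and then 7.99, 7.4 and 7.68 FPKM, a difference of 0.57 (SE 0.05, adjusted p = 1.32e-06). These rises depend on the scale: in TPM Srebf2 was at -0.08 and Scap at 0.02 (adjusted p = 0.840), and after quantile normalization Srebf2 was at -0.08 and Scap at 0.52 (adjusted p = 4.33e-06). In osteoclasts neither was called with LPS, at 0.05 and 0.06. Untreated osteoclasts had less of both, with Srebf2 at 35.4, 36.6 and 35.8 FPKM (-0.25, adjusted p = 6.42e-04) and Scap at 3.74, 3.95 and 3.82 FPKM (-0.27, adjusted p = 5.50e-04). Treated osteoclasts read 35.1, 41 and 36.2 FPKM for Srebf2. Srebf1, which encodes the SREBP-1 forms and drives fatty acid genes, read 15.8, 15.9 and 16.3 FPKM in untreated and 15.1, 14.7 and 15.1 FPKM in treated macrophages, a difference of -0.09 (adjusted p = 0.0922). It read 11.5, 12.1 and 13.2 FPKM in untreated and 12.1, 12.1 and 12.3 FPKM in treated osteoclasts, where the groups overlapped, and it was lower in untreated osteoclasts than in macrophages by 0.36 on the log2 scale (adjusted p = 1.39e-05).

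Stard4 and Soat1, the members for sterol transport and esterification, fell with LPS in macrophages and were not called with LPS in osteoclasts. Stard4, which carries sterol between membranes and is an SREBP target, read 23.6, 23.2 and 24.7 FPKM in untreated and 9.49, 10.3 and 10.5 FPKM in treated macrophages. It read 5.23, 5.19 and 5.26 FPKM in untreated and 5.7, 5.88 and 5.46 FPKM in treated osteoclasts. The osteoclast libraries all lay below the macrophage libraries, and macrophages given LPS lay between. Its differences were -1.16 with LPS in macrophages (SE 0.05, adjusted p = 3.40e-10), 0.10 with LPS in osteoclasts (SE 0.05, adjusted p = 0.159) and -2.0 between the untreated cell types (SE 0.05, adjusted p = 2.14e-12). Soat1, which esterifies cholesterol for storage, fell from 17.6 ± 0.238 to 9.6 ± 0.29 FPKM in macrophages (SD, n = 3 in each group), a difference of -0.81 (SE 0.05, adjusted p = 1.50e-08). In osteoclasts it was at 13.6 ± 0.846 FPKM without and 12.5 ± 0.438 FPKM with LPS (SD, n = 3 in each group), a difference of -0.12 (adjusted p = 0.108).

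The LXR genes and their targets were split, and with LPS in macrophages the split depended on the scale. On the deposited scale 3 of the 6 rose there, 1 fell and 2 were not called. Of all genes, 36.8% were called higher and 33.1% lower. In TPM, where 70.0% of all genes were called lower, the differences of Nr1h2, Abca1, Mylip and Apoe were below 0. Nr1h2, which encodes LXR beta and is broadly expressed, read 20.1, 20.1 and 20.4 FPKM in untreated macrophages and 28.7, 28.8 and 28.9 FPKM after LPS. Its difference was 0.49 (SE 0.03, adjusted p = 8.02e-08), but it was -0.14 in TPM and 0.05 (adjusted p = 0.226) after quantile normalization. In osteoclasts it read 17.9, 18.1 and 19.1 FPKM without and 19.1, 19.7 and 19.4 FPKM with LPS, a difference of 0.08 (adjusted p = 0.162). Nr1h3, which encodes LXR alpha and is found in macrophages among other tissues, was low throughout. It read 2.11, 1.86 and 1.89 FPKM in untreated and 1.25, 1.47 and 1.3 FPKM in treated macrophages, groups that did not overlap but gave an adjusted p of 0.0580 (-0.34, SE 0.15) in the fit where all groups share 1 estimate of the spread. With only the macrophage groups in the fit, or without osteoclast LPS replicate 2, the adjusted p was 0.00291 or 0.00206.

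Nr1h3 was higher in osteoclasts. It read 3.51, 2.87 and 3.21 FPKM untreated and 5.16, 2.71 and 4.44 FPKM with LPS, so that treated replicate 2 lay below all 3 untreated libraries. The difference between the untreated cell types was 0.50 (SE 0.15, adjusted p = 0.00766), which was 0.26 (adjusted p = 0.167) in TPM. The LPS effect in osteoclasts was 0.25 (SE 0.15, adjusted p = 0.274) over all libraries and 0.47 (adjusted p = 0.00290) without treated replicate 2. That library was also the lowest of its group for Cxcl10 and Adgre1, as given above, and their part in this result was not tested. The interaction of 0.59 (SE 0.21, adjusted p = 0.0292) lost its call under 9 of the alternatives.

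The pair of cholesterol exporters went apart. Abca1 (chr4:53030787-53159895), which loads cholesterol onto apolipoproteins, read 24.5, 23.5 and 22.9 FPKM in untreated and 31.9, 28.5 and 28.5 FPKM in treated macrophages. It read 5.25, 5.18 and 5.57 FPKM in untreated and 7.27, 4.78 and 6.9 FPKM in treated osteoclasts. Osteoclasts thus had far less, at -1.96 without LPS (SE 0.11, adjusted p = 5.41e-09) and -2.08 with it (SE 0.11, adjusted p = 2.22e-09). Within macrophages the LPS difference was 0.31 (SE 0.11, adjusted p = 0.0222), but -0.32 in TPM and -0.17 after quantile normalization. That call was also lost without untreated replicate 2 or 3 or treated replicate 1, at adjusted p-values of 0.0521, 0.0641 and 0.0802. In osteoclasts Abca1 was at 0.19 (adjusted p = 0.265) over all libraries and 0.35 (adjusted p = 0.00157) without treated replicate 2.

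Abcg1 (chr17:31057675-31117988), which passes cholesterol to high-density lipoprotein, had the reverse order. It read 1.78, 1.8 and 1.58 FPKM in untreated and 1.14, 1.12 and 0.805 FPKM in treated macrophages. It read 4.58, 4.47 and 4.54 FPKM in untreated and 4.57, 3.89 and 4.8 FPKM in treated osteoclasts, all above the macrophage libraries. Its LPS difference in macrophages was -0.43 (SE 0.08, adjusted p = 4.55e-04), and the difference between untreated cell types was 1.02 (SE 0.08, adjusted p = 1.59e-07). In osteoclasts the LPS difference was -0.03 (SE 0.08, adjusted p = 0.821).

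Apoe (chr7:19696109-19699188), the apolipoprotein that carries exported cholesterol, was the most abundant member. It read 1726.1, 1717.4 and 1572.7 FPKM in untreated and 2060.0, 2005.1 and 2095.2 FPKM in treated macrophages. It read 64.4, 75.5 and 68.2 FPKM in untreated and 72.7, 72.2 and 76.9 FPKM in treated osteoclasts. The untreated means differed 24.1-fold, a log2 difference of -4.57 (SE 0.06, adjusted p = 1.73e-14). Its LPS difference in macrophages was 0.30 (SE 0.06, adjusted p = 6.47e-04) on the deposited scale, -0.35 in TPM and -0.89 after quantile normalization. Mylip (chr13:45389742-45412022), an LXR target whose product marks lipoprotein receptors for degradation, read 17.9, 17.8 and 18.4 FPKM in untreated and 19.4, 21.3 and 18.2 FPKM in treated macrophages. It read 1.19, 1.45 and 1.6 FPKM in untreated and 2.11, 1.16 and 1.56 FPKM in treated osteoclasts, a difference between untreated cell types of -2.98 (SE 0.11, adjusted p = 1.52e-10). LPS groups overlapped in both cell types, and neither effect was called on the deposited scale. In TPM and after quantile normalization the macrophage difference of Mylip was called below 0, with values given below.

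Ch25h (chr19:34473778-34475164), the hydroxylase that turns cholesterol into an oxysterol with immune roles, had the largest response to LPS of all members. It read 51.4, 52.5 and 43.6 FPKM in untreated macrophages and 591, 537 and 545 FPKM after LPS, a mean 11.4-fold higher. In untreated osteoclasts it read 0.963, 0.351 and 0.349 FPKM, from 24, 8 and 8 reads. With LPS osteoclasts read 4.11, 2.69 and 4.59 FPKM, from 110, 56 and 113 reads, a mean 6.85-fold higher, with no overlap. The log2 difference in macrophages was 3.48 (SE 0.16, adjusted p = 1.80e-09). In osteoclasts it was 1.63 (SE 0.16, adjusted p = 2.35e-05). Their interaction of -1.85 (SE 0.23, adjusted p = 2.70e-05) rests on the pseudocount of 1, which shrinks differences between low values. It was -0.84 with a pseudocount of 0.1 (adjusted p = 0.108) and -0.64 with voom on the recovered reads (adjusted p = 0.269), so a difference in fold response between the cell types was not established. The gap in level was large under every setting run: Ch25h differed by -5.03 between untreated and by -6.88 between treated cell types. Gm26902 on the opposite strand covers 11.5% of its exon length, at 0.969 FPKM or less on average in each group.

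Neighbouring pathways were read from lists of related genes in the same fit, beside the shares of all genes called with LPS, which were 36.8% higher and 33.1% lower in macrophages and 11.1% and 6.59% in osteoclasts. Of 11 fatty acid synthesis genes tested, which SREBP-1 controls, 7 fell, 0 rose and 4 were not called with LPS in macrophages, with a median of -0.60. Scd2, a fatty acid desaturase, read 35, 35.4 and 37.7 FPKM untreated and 4.54, 4.89 and 5.25 FPKM with LPS, a difference of -2.65 (SE 0.06, adjusted p = 3.51e-12). Fasn, fatty acid synthase, differed by -1.43 and Fads1, another desaturase, by -1.02. In osteoclasts 1 of the 11 fell and 0 rose. Elovl6, Scd1 and Fads2 passed the filter through macrophages alone, with at most 0.313 FPKM in any osteoclast library. Of the other 8, 5 fell and 0 rose with LPS in macrophages, and 1 fell and 0 rose with LPS in osteoclasts. Between the untreated cell types 6 of these 8 were lower in osteoclasts and 1 was higher, beside 39.0% and 38.8% of all genes. The 13 genes of the prenyl and dolichol branches, which leave the pathway after mevalonate, gave 4 higher and 4 lower with LPS in macrophages and none called in osteoclasts, where the median was 0.00. In TPM those macrophage counts were 0 and 10, beside 15.9% of all genes called higher and 70.0% called lower there, so 10 of 13 is near that background.

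Of 8 genes that process or degrade SREBP and INSIG, 4 rose and 1 fell with LPS in macrophages, near the 36.8% of all genes called higher, and TPM gave 2 and 6, near the shares of all genes in TPM just given. Rnf139 and Rnf145, membrane ubiquitin ligases of the sterol pathway, were the largest. Rnf139 read 5.76, 5.75 and 6.08 FPKM untreated and 16.7, 16.3 and 17.2 FPKM with LPS, a difference of 1.37 (SE 0.05, adjusted p = 3.57e-10) that was 0.84 in TPM. Rnf145 differed by 1.14 in macrophages and by 0.37 in osteoclasts (adjusted p = 0.00231). Of 6 other LXR partners and targets, 3 rose and 1 fell in macrophages, while TPM gave 0 and 6. Rxra, the LXR partner, fell from 28.1, 28.5 and 25.6 FPKM to 4.65, 5.09 and 4.85 FPKM, a difference of -2.27 (SE 0.06, adjusted p = 1.60e-11). In osteoclasts Rxra read 4.05, 4.82 and 4.16 FPKM without and 2.87, 2.8 and 2.63 FPKM with LPS, a difference of -0.50 (adjusted p = 1.60e-04).

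Of 6 genes for sterol uptake and release tested, 3 rose and 3 fell with LPS in macrophages. Stard5, a sterol carrier, read 1.98, 1.89 and 2.16 FPKM untreated and 13.2, 12.2 and 12.1 FPKM with LPS, a difference of 2.16 (SE 0.07, adjusted p = 9.20e-11), while Stard4 of the same family fell. Stard3, the late endosome carrier, rose by 1.13 and Nceh1, which releases cholesterol from its esters, fell by 1.11 on the log2 scale. In osteoclasts Stard5 was at 0.01 (adjusted p = 0.929), and Nceh1 fell by 0.26 (adjusted p = 2.35e-04). Of 3 other oxysterol enzymes, Cyp27a1 alone was tested, and it passed the filter through macrophages alone, with at most 0.449 FPKM in any osteoclast library. Its LPS difference in macrophages was 0.07 (adjusted p = 0.438), and -0.54 in TPM (adjusted p = 8.92e-04).

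Outside the listed genes, the 5 whose profile over the 12 libraries was most like the mean standardised profile of the enzymes were Sox4 (Pearson r = 0.985), Nuak1 (0.982), Sfmbt1 (0.982), Trim27 (0.981) and Rrp1b (0.980). They were picked for this likeness, and the 12 libraries form 4 groups, so the values describe a pattern over 4 means. The enzyme profile was the mean over all 17 enzymes, Fdps and Tm7sf2 included. Sox4 averaged 4.05 FPKM in untreated macrophages and 0.185, 0.396 and 0.513 FPKM in treated macrophages, untreated osteoclasts and treated osteoclasts. It could thus pass the filter only through untreated macrophages, where the enzymes were high as well, so its likeness was in part set by the filter. Sfmbt1 averaged 16.3, 10.4, 10.8 and 11.6 FPKM in the same order.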

How the data were processed

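RNA of 12 libraries was sequenced, and the titles give 4 groups of 3. They were made, per the labels' protocols, with the NEBNext Ultra kit from total RNA. The submitters' processing notes name fastp, STAR, featureCounts, DESeq2 and build mm10, with no versions given. The authors deposited FPKM values for 54532 Ensembl genes. Whole reads were recovered for 25777 of 25854 genes above 0 (99.7%, tolerance 0.02), 24997 of these with lengths from GENCODE M21 and the others from the values' own steps. The denominators matched median-of-ratios size factors, so a change is relative to the typical gene. This is inferred from the values. The use of strand is not given in the sources used here.

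Log2(FPKM + 1) of 11335 genes was tested two-sided in R 4.3.3 with limma 3.58.1 (eBayes with a trend), in 1 fit of 4 group means. This scale understates changes of low genes. Alternatives were voom on the recovered reads, TPM, quantile normalization, a block for the replicate number, a fit of the compared groups alone, a fit without the trend, a pseudocount of 0.1, no filter or one at a mean of 5 FPKM, and each library left out. The steps were tested on simulated data. The members and lists were chosen with earlier results of these data known. The rule for genes from other lists was an absolute log2 difference of at least 1 among called genes in either LPS comparison, and for members all could be named. Gene positions follow GENCODE M21 (GRCm38). Read counts cover counting error only.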

Additional observations from a re-analysis of the deposited data

Results flagged for a closer look

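The LPS effect in osteoclasts differed from that in macrophages for 23 of the 29 genes other than Fdps and Tm7sf2, by the interaction test in limma, beside 56.6% of all genes tested. Fdps, which passed the filter on low values through untreated macrophages alone, is given with them. Among the mevalonate genes the difference, osteoclasts minus macrophages, was 1.38 for Mvd, 0.82 for Fdps, 0.58 for Mvk, 0.37 for Idi1 and 0.34 for Hmgcs1. For the squalene and lanosterol steps it was 1.47 for Lss, 1.31 for Sqle and 0.83 for Fdft1. From lanosterol to cholesterol it was 1.10 for Msmo1, 1.05 for Hsd17b7, 0.98 for Dhcr7, 0.76 for Cyp51, 0.61 for Sc5d and 0.31 for Nsdhl. Stard4 had 1.27 and Soat1 had 0.69.

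Of the control and LXR genes, Insig1 had 0.96 and Insig2 had 0.29, while Srebf2 and Scap both had -0.51 and Nr1h2 had -0.41. Nr1h3 had 0.59, a call lost under 9 of the alternatives, and Abcg1 had 0.40, which was 0.26 (adjusted p = 0.0706 in limma) after quantile normalization. Ch25h had -1.85, which lost its call with a pseudocount of 0.1, in TPM and with voom. The negative differences of Srebf2, Scap and Nr1h2 depend on the scale: in TPM they were 0.06, -0.01 and 0.14, and after quantile normalization 0.07, -0.51 and -0.05, where of these Scap alone kept its call.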

How the results depend on the processing

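Of 155 gene results, none reversed in 1024 values under alternatives that kept the scale and all libraries, where 16 calls were lost and 6 gained, or in 1860 values with 1 library left out, where 33 were lost and 13 gained. Of 310 values under the other scalings, 23 reversed, 14 lost their call and 17 gained one. In TPM the median of all genes moved from 0.02 to -0.55 with LPS in macrophages, 0.01 to -0.06 with LPS in osteoclasts, 0.00 to -0.38 between untreated and -0.02 to 0.12 between treated cell types, and -0.01 to 0.51 for the difference of LPS effects. After quantile normalization those medians were -0.14, -0.05, 0.03, 0.09 and 0.09. The cause of single reversals was not tested.

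In TPM the LPS differences in macrophages were -0.52 for Ebp, -0.57 for Insig2, -0.08 for Srebf2, -0.14 for Nr1h2, -0.32 for Abca1, -0.52 for Mylip and -0.35 for Apoe. Between untreated cell types TPM gave -0.30 for Pmvk and -0.36 for Ebp. For the difference of LPS effects it gave 0.49 for Ebp, 0.06 for Srebf2, 0.14 for Nr1h2, 0.46 for Abca1, 0.59 for Mylip and 0.37 for Apoe. Quantile normalization gave LPS differences in macrophages of -0.23 for Ebp, -0.08 for Srebf2, -0.17 for Abca1, -0.27 for Mylip and -0.89 for Apoe. It gave 0.17 for Ebp between treated cell types, and 0.07 for Srebf2 and 0.87 for Apoe for the difference of LPS effects.

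Of the 31 members, Fdps and Tm7sf2 included, the number higher with LPS in macrophages was 6, 1 in TPM and 2 after quantile normalization. Of all genes, 36.8%, 15.9% and 26.9% were called higher in that order. The number lower with LPS in macrophages was 17 and 28 in TPM, where the share of all genes called lower went from 33.1% to 70.0%. The number lower with LPS in osteoclasts was 0, 1 in TPM and 2 after quantile normalization, beside 6.59%, 10.8% and 13.4% of all genes. With a library left out it was 0 to 1, where Soat1 was called without untreated osteoclast replicate 2. The number higher in untreated osteoclasts was 4, 2 in TPM and 2 at a mean of at least 5 FPKM, which tests fewer genes. Those called higher were 38.8%, 24.3% and 46.3% of all genes tested. The number higher in treated osteoclasts was 13, or 12 without Fdps and Tm7sf2, and 8 at that mean. Of all genes tested, 40.9% were called higher as deposited and 42.5% at that mean. The number with a difference of LPS effects below 0 was 4, 0 in TPM and 2 after quantile normalization. Of all genes, 30.0%, 13.9% and 24.1% were called below 0. With a library left out, 4 to 8 members were called with LPS in osteoclasts, against 6. With all libraries, 11.1% of all genes were called higher there and 6.59% lower.

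Samples of one replicate number did not deviate together (correlations -0.07 to 0.10), so the numbers were not taken as pairs. With the number as a replicate block, 23 of the 31 became 24 called with LPS in macrophages (Nr1h3 gained). In osteoclasts 6 became 5 (Msmo1 lost, adjusted p = 0.0560), and Pmvk lost its call between treated cell types. With that block 36.7% of all genes were called higher and 33.1% lower with LPS in macrophages. Those shares were 10.8% and 6.20% in osteoclasts. Few reads, 8 to 24 per library, lay behind Ch25h in untreated osteoclasts.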
